A study of Rattus norvegicus with 8 samples.

Results

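The unfolded protein response and the integrated stress response were followed through 32 listed genes in the pituitary of dioxin-exposed and control rat mothers. A gene counted as a member where its listed symbol equals the gene name of a non-control spot in the scanner files. By that rule 29 of the 32 genes had a probe, and all 29 were bright enough to be among the 17361 genes tested. Edem1, Derl2 and Sesn2 have no probe under those names and were not analysed here as members. The samples were whole pituitaries of lactating Wistar rats on postpartum day 7: 4 dams exposed to TCDD (a dioxin that activates the aryl hydrocarbon receptor) and 4 control dams, 1 single-colour Agilent array each. Dose and time of exposure are not stated in the labels, and the p-values cover only how much these 8 samples varied. The TCDD arrays shared slide 2 and the control arrays slide 1. Effects of the slide and of TCDD therefore cannot be told apart.

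The endoplasmic reticulum (ER) is where secreted proteins such as the pituitary hormones are folded. When unfolded protein builds up there, the membrane sensors ATF6, IRE1 (gene Ern1) and PERK (gene Eif2ak3) raise the chaperones, the folding enzymes and the machinery that removes misfolded protein. PERK also phosphorylates the initiation factor eIF2, an arm that it shares with other kinases and that is called the integrated stress response. Translation of most messages then slows while that of the transcription factor ATF4 increases, and ATF4 induces genes of amino acid supply and of cell death, among them Ddit3 (CHOP), Trib3, Asns, Chac1 and Sesn2. Below, Atf4 itself is counted with these targets and kept apart from the other members.

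The known ER stress response element, to which ATF6 binds together with NF-Y, is the reason for showing the promoters of the chaperone genes. The matches show which members hold its letters near their start in the rat genome. Here and below, an element in a promoter means a match of letters only, and binding was not measured. Promoter windows from RefSeq (GRCr8, 250 bases before to 50 bases after each gene's start) were found for 26 of the 32 listed genes. CCAAT followed after 9 bases by CCACG, searched on both strands, was present in 6 of these 26 windows and in 22 of 33469 windows of all genes (0.0657%). The 7 matches are printed 5′ to 3′ along the gene's strand, with the element in capitals. In Calr and in the second Hsp90b1 line it lies on the opposite strand and reads CGTGG, 9 bases, ATTGG.
Hspa5 (chr3:38452953-38453011, plus strand): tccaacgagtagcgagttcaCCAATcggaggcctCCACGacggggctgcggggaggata
Xbp1 (chr14:84604538-84604596, plus strand): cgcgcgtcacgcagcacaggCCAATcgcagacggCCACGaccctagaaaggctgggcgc
Dnajc3 (chr15:102432514-102432572, plus strand): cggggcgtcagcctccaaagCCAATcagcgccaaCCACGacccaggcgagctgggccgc
Canx (chr10:35158049-35158107, minus strand): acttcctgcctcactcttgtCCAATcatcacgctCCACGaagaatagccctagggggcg
Hsp90b1 (chr7:23012431-23012489, minus strand): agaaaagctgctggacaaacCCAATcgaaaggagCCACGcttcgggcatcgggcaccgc
Hsp90b1 (chr7:23012327-23012385, minus strand): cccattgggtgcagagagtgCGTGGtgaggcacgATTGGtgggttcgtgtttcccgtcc
Calr (chr19:40213117-40213173, plus strand): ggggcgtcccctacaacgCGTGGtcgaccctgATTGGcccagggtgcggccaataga

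A second form of the element, ATTGG followed after 1 base by CCACG, was added to the search after the files were seen. It was present in 3 of the 26 members' windows and in 17 of all 33469 (0.0508%). Those of Herpud1 and Hyou1 are shown in the same way, because they mark a degradation gene and a chaperone that lack the longer spacing. The third, in Dnajb11, reaches its transcription start. In Hyou1 both matches lie on the opposite strand and read CGTGG, 1 base, CCAAT.
Herpud1 (chr19:10614801-10614851, minus strand): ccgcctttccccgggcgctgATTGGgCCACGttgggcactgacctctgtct
Hyou1 (chr8:53602674-53602724, plus strand): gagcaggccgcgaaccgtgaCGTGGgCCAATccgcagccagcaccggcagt
Hyou1 (chr8:53602774-53602824, plus strand): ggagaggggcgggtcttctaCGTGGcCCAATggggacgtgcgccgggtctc
The element to which XBP1 and ATF6 bind, TGACGTGG on either strand, was in 1 member window, that of Hyou1 (0.595% of all windows), where it overlaps the first of the Hyou1 matches shown. The 3 forms searched of the element bound by ATF4 with C/EBP proteins, TGATGCAAT, TGATGAAAC and TGATGTAAT, were in 0 of the 26 windows (0.188%, 0.209% and 0.338% of all windows). No match says only that these letters are not in these windows.

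The 8 arrays were of like brightness: the 75th percentile of the processed signal, by which each array was scaled, was 765 to 897 on TCDD arrays and 805 to 932 on control arrays, with 71.1% to 73.9% of spots well above background and 0 saturated. Levels below are log2 of a probe's signal over that percentile. A level at 0 therefore equals the array's 75th percentile, and levels of different probes are not comparable. Of 11 erythrocyte markers 5 were measured, all 5 higher on TCDD arrays, with a summed linear signal of 438 to 664 on TCDD arrays and 304 to 551 on control arrays, and their part in the values below was not tested. All 11 hormone-cell markers, Prl, Gh1 and Pomc among them, were well above background on all 8 arrays, which checks the labelled tissue. In whole tissue, fewer cells of a type and less RNA per cell cannot be told apart.

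None of the 29 measured members passed the test between TCDD and control dams (limma, Benjamini-Hochberg adjusted p under 0.05 over all genes tested), against 0.0806% of all genes (0.0576% higher and 0.023% lower). The fitted change was above 0 for 11 members and below 0 for 18, where 43.6% of all genes were below 0, and the median member change was -0.05 on the log2 scale (0.02 over all genes). Both splits depended on the scaling. With quantile normalization 20 members and 49.0% of all genes were below 0, with median centring 21 and 55.7%, with normexp and quantile normalization together 23 and 48.8%, and with the values the authors deposited 20 and 51.3%. The member split also turned on single TCDD arrays, with 13 members below 0 without replicate 4 and 23 without replicate 2. Of all genes, 43.1% and 43.7% were below 0 in these fits, and the median member change was 0.04 and -0.13. With all 8 arrays and the main scaling, 0 members were higher and 3 lower at an unadjusted p under 0.05, namely Atf4, Atf6 and Derl1. Across all genes 7.76% were higher and 2.95% lower on that count. The 4 TCDD values lay entirely above the 4 control values for P4hb and entirely below them for Atf6 and Derl1, against 5.19% and 1.91% of all genes (7.1% in either direction). The lowest adjusted p among members was 0.31, that of Atf6.

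**Figure D1:**
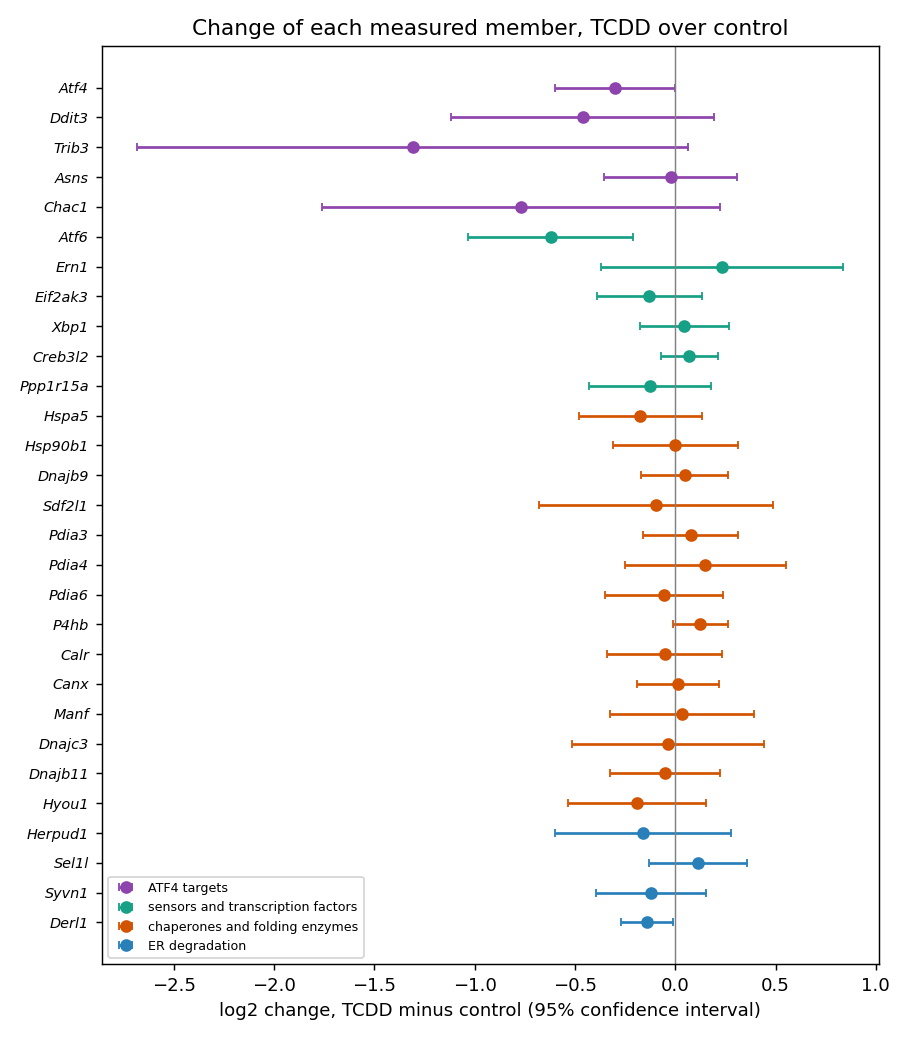
Log2 change of each of the 29 measured members, TCDD minus control, with its 95% confidence interval from limma (n = 4 arrays a group), coloured by role. The intervals of Atf4, Atf6 and Derl1 lie below 0 before adjustment, and that of Trib3, from -2.68 to 0.06, is the widest.

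Atf4 and all 4 of its measured target genes had lower means on the TCDD arrays, with a median change of -0.46, and the SD was larger on the control arrays for all 5, as it was for 46.6% of all genes. Atf4, the transcription factor of the integrated stress response, stood at 4.32, 4.19, 4.23 and 4.03 on the TCDD arrays, against 4.45, 4.41, 4.27 and 4.86 on the control arrays. TCDD replicate 1 lay above control replicate 3, so the groups overlapped. Its change was -0.30 (SE 0.13), or 1.23-fold lower (limma, adjusted p = 0.46), with an exact two-sided permutation p of 0.057, where 0.029 is the smallest that 4 against 4 arrays can give. In rn4, the build the files name, the Atf4 probe spans chromosome 7 from 118538840 to 118538899. The exons on which this and the other probes fall were not determined here.

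Ddit3 encodes CHOP, a transcription factor that favours cell death under lasting ER stress. It stood at 2.58, 2.31, 2.49 and 2.66 on the TCDD arrays, against 3.15, 2.82, 2.19 and 3.71 on the control arrays. Control replicate 3 was the lowest of the 8 arrays and control replicate 4 the highest, so the TCDD values lay inside the control range. The change was -0.46 (SE 0.28; limma, adjusted p = 0.63), and the SD was 0.15 on TCDD arrays and 0.64 on control arrays (n = 4 each). This probe lies on chromosome 7 from 67252505 to 67252564.

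Trib3, a pseudokinase that restrains ATF4 and the kinase AKT, had the lowest fitted change of all members, -1.31 (SE 0.60), or 2.48-fold lower (limma, adjusted p = 0.49). It stood at -3.29, -4.34, -4.36 and -3.09 on the TCDD arrays, against -1.72, -3.14, -3.79 and -1.20 on the control arrays. Control replicates 2 and 3 lay within the TCDD range, and replicates 1 and 4 stood above every TCDD array. With normexp background correction and quantile normalization the change was -0.88. Trib3 was dim, with signals of 38 to 105 on TCDD arrays and 62 to 351 on control arrays, though well above background on all 4 arrays of each group. Its probe lies on chromosome 3 from 142664936 to 142664995.

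Chac1, an enzyme that degrades glutathione, had the same order of control arrays as Atf4, Ddit3 and Trib3, with replicate 4 highest, then 1, 2 and 3. It stood at -1.90, -2.30, -2.16 and -1.71 on the TCDD arrays, against -0.99, -1.72, -2.26 and -0.04 on the control arrays. The change was -0.77 (SE 0.43; limma, adjusted p = 0.59), with a control SD of 0.96 and a TCDD SD of 0.27. Asns, the asparagine synthetase, stood at 1.90, 1.94, 1.69 and 2.11 on the TCDD arrays, against 2.00, 1.71, 1.75 and 2.27 on the control arrays. Its groups covered nearly the same range, and the change of -0.02 had a 95% confidence interval from -0.35 to 0.31.

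A probe whose name was updated to Sesn2 through its accession, and which therefore does not meet the naming rule, is given beside these genes. Sesn2 encodes sestrin 2, an inhibitor of the growth kinase mTORC1. The probe stood at -3.01, -3.07, -2.69 and -2.45 on the TCDD arrays, against -2.18, -2.62, -2.87 and -1.81 on the control arrays. Control replicate 4 was again highest, and the change of -0.43 (SE 0.24) did not pass (limma, adjusted p = 0.58).

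**Figure D2:**
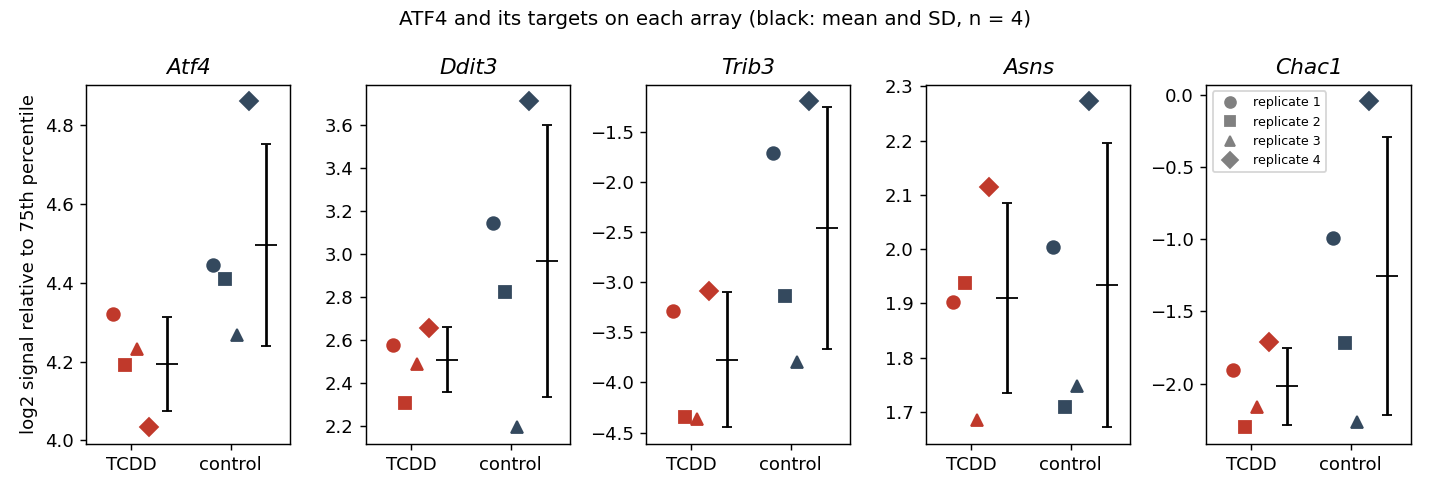
Level of Atf4 and its 4 measured targets on each array (log2 signal relative to the array's 75th percentile; one marker shape per replicate number), TCDD left and control right, with the mean and SD of 4 arrays in black. Control replicate 4 (diamond) is the highest of the 8 arrays in all 5 panels.

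The size of these differences moved with single control arrays. Leaving out a gene's highest control must raise its change, and leaving out its lowest control must lower it. Control replicate 4 was the highest of the 8 arrays for all 5 genes, a position it held for 17.7% of all genes, and stood a median of 0.99 above the mean of the other 3 controls (0.02 over all genes). Without it the median change was -0.21, and the changes were -0.18 for Atf4, -0.21 for Ddit3, -0.89 for Trib3, -0.36 for Chac1 and 0.09 for Asns. Without control replicate 3, the lowest control array for Atf4, Ddit3, Trib3 and Chac1, the median was -0.72 instead. None of the 5 passed in either case. Without control replicate 1 the median was -0.40 and the change of Trib3 was -1.06. Among the TCDD arrays, replicate 4 was likewise the highest for Ddit3, Trib3, Chac1 and Asns, but the lowest for Atf4. Across the 5 genes it stood a median of 0.27 above the mean of the other 3 TCDD arrays (-0.01 over all genes). The order of the arrays was looked at after the values were seen and has no test.

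Control replicate 4 differed from the other control arrays in cell type markers too. There the measured erythrocyte markers averaged 0.22, as deviations from the 8-array mean, against -0.73 to -0.63 on the other 3 controls. The 11 measured of 14 posterior lobe and neural markers averaged -0.43 on it, against 0.08 to 0.34 on the others, with summed signals of 6.51 to 8.62 on TCDD arrays and 6.02 to 10.1 on control arrays. The part of these markers in the levels of the ATF4 targets was not tested.

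Among the sensors and their transcription factors, Atf6 differed most. Atf6 encodes the sensor that is cleaved in the Golgi to release a transcription factor for chaperone genes. By its brighter probe it stood at -1.15, -1.85, -1.17 and -1.19 on the TCDD arrays, against -0.50, -0.57, -0.91 and -0.88 on the control arrays. Every TCDD array lay below every control array, and TCDD replicate 2 lay far below the other 3. The change was -0.62 (SE 0.18), or 1.54-fold lower, with a 95% confidence interval from -1.03 to -0.21 (limma, unadjusted p = 0.0083, adjusted p = 0.31; exact two-sided permutation p = 0.029). Without TCDD replicate 2 it was -0.45.

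The other Atf6 probe, which is dimmer, gave a smaller difference. It stood at -4.71, -4.25, -4.20 and -4.16 on the TCDD arrays, against -4.17, -4.25, -4.08 and -3.98 on the control arrays. Here the groups overlapped, the change was -0.21 (exact two-sided permutation p = 0.20), and TCDD replicate 1 rather than replicate 2 was lowest. The brighter probe lies on chromosome 13 from 86543773 to 86543832 and the dimmer one from 86545071 to 86545130, both on the minus strand in rn4. With the mean of both probes the change was -0.41 (limma, adjusted p = 0.24).

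The other sensors and factors overlapped between groups. Ern1, which encodes the kinase and ribonuclease that splices Xbp1, was near background, being well above it on 3 of 4 TCDD arrays and on 4 of 4 control arrays, and its change was 0.24 (95% confidence interval -0.37 to 0.84), or 0.0832 without TCDD replicate 4 and 0.46 without TCDD replicate 3. Eif2ak3 (PERK) differed by -0.13 (SE 0.11), with -0.16 to -0.02 on TCDD arrays and -0.10 to 0.39 on control arrays, control replicate 4 alone being above 0. Without that array its change was -0.0138. Xbp1, whose spliced message encodes the factor downstream of IRE1, stood at 3.06 to 3.30 on TCDD arrays and 2.97 to 3.34 on control arrays. The probe does not separate the spliced from the unspliced message as far as the files say. Creb3l2, an ER-bound relative of ATF6, differed by 0.07 (SE 0.06), and Ppp1r15a (GADD34), the phosphatase subunit that reverses eIF2 phosphorylation, by -0.12 (SE 0.13). The Ppp1r15a value was -0.0271 without TCDD replicate 1 and -0.24 without TCDD replicate 2.

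The 14 chaperones and folding enzymes were centred close to 0, with 7 higher, 7 lower and a median change of -0.02. Hspa5 (BiP), the main Hsp70 chaperone of the ER, whose promoter element is shown above, stood at 5.64, 5.96, 5.55 and 5.41 on the TCDD arrays, against 5.60, 5.81, 5.82 and 6.03 on the control arrays. The groups overlapped, and the change was -0.17 with a 95% confidence interval from -0.48 to 0.13 (limma, adjusted p = 0.71). It was -0.28 without TCDD replicate 2 and -0.0975 without TCDD replicate 4. P4hb, the protein disulfide isomerase that forms disulfide bonds, was the only chaperone whose groups did not overlap. It stood at 4.00, 4.11, 3.96 and 3.93 on the TCDD arrays, against 3.83, 3.91, 3.86 and 3.91 on the control arrays. Its change was 0.13 (SE 0.06), or 1.09-fold higher (limma, adjusted p = 0.52; exact two-sided permutation p = 0.029), by a probe on chromosome 10 from 109950731 to 109950790.

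**Figure D3:**
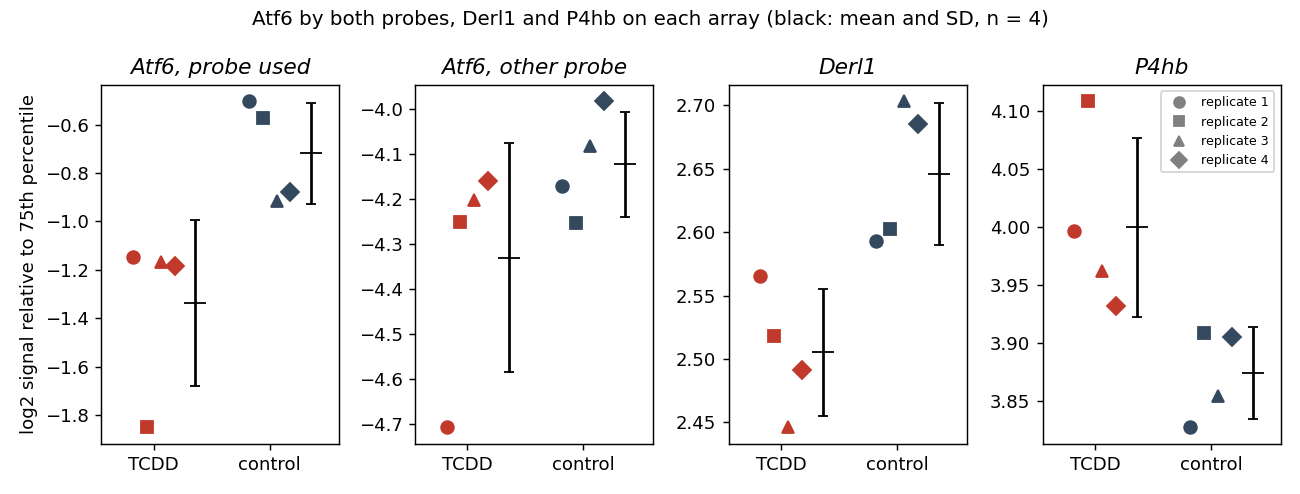
Levels by array (log2 signal relative to the array's 75th percentile) of Atf6 by both of its probes, of Derl1 and of P4hb, TCDD left and control right, with mean and SD of 4 arrays in black. The groups are apart for the brighter Atf6 probe, Derl1 and P4hb and overlap for the dimmer Atf6 probe, and each panel has its own scale.

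For the other 12 chaperones the fitted changes lay between -0.19 for Hyou1 and 0.15 for Pdia4. Hyou1 is a large Hsp70-like nucleotide exchange factor of BiP, and Pdia4 a disulfide isomerase. Hsp90b1 (GRP94), the Hsp90 of the ER with 2 elements in its promoter, averaged 4.01 ± 0.27 on TCDD arrays and 4.01 ± 0.13 on control arrays (SD, n = 4 each). The lectin chaperones Calr and Canx differed by -0.05 (SE 0.12) and 0.01 (SE 0.09). The disulfide isomerases Pdia3 and Pdia6 differed by 0.08 (SE 0.10) and -0.06 (SE 0.13). Of the J-domain cochaperones of BiP, Dnajb9 differed by 0.05 (SE 0.09), Dnajb11 by -0.05 (SE 0.12) and Dnajc3 by -0.04 (SE 0.21), while Manf, a secreted ER protein with neurotrophic activity, differed by 0.03 (SE 0.16). The 95% confidence intervals of the 14 reached from -0.68 (Sdf2l1) to 0.55 (Pdia4) but differed in width, that of P4hb being -0.01 to 0.26. For each gene, changes inside its own interval are not settled by 4 arrays a group.

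Most chaperones were highest on 1 TCDD array and lowest on another. TCDD replicate 2 was the highest of the 8 arrays for 13 of the 14, a place it held for 14.6% of all genes. TCDD replicate 4 was the lowest of the 8 for 11 of the 14, a place it held for 15.1% of all genes. The SD was larger on TCDD than on control arrays for 13 of the 14, and for 0 of the 5 ATF4 genes, against 53.4% of all genes. These array patterns were noticed in the values and are given as a description without a test.

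The gap was widest for Sdf2l1, a protein of the BiP complex, which stood at 3.97, 4.29, 4.13 and 3.00 on the TCDD arrays, against 3.90, 3.95, 3.97 and 3.95 on the control arrays. Its other probe gave 3.38, 3.77, 3.61 and 2.28 on the TCDD arrays, against 3.38, 3.34, 3.35 and 3.44 on the control arrays. Both probes placed TCDD replicate 4 below, and the other 3 TCDD arrays within or above, the narrow range of the controls. Dnajc3, which also inhibits PERK, stood at 2.95, 2.98, 2.85 and 2.03 on the TCDD arrays, against 2.70, 2.77, 2.60 and 2.89 on the control arrays. Calr stood at 3.00, 3.06, 3.06 and 2.51 on the TCDD arrays, against 2.94, 2.96, 2.97 and 2.97 on the control arrays. For Calr, 3 TCDD arrays lay above all control arrays and replicate 4 lay below them.

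Relative to the mean of the other 3 TCDD arrays, replicate 4 stood a median of -0.46 lower across the 14 chaperones (-0.01 over all genes, whose 5th percentile was also -0.46). Without it the median chaperone change was 0.10, and Sdf2l1 stood at 0.19, Dnajc3 at 0.19, Pdia4 at 0.28 and Calr at 0.08, none of them past the threshold. The 11 hormone-cell markers averaged -0.18 on TCDD replicate 4, as deviations from the 8-array mean, against 0.02 to 0.09 on the other TCDD arrays. They averaged -0.11 on control replicate 4 too, against 0.01 to 0.11 on the other controls. Their summed signal was 1286 to 1660 on TCDD arrays and 1441 to 1451 on control arrays. Of 9 plasma cell markers 3 were measured, and these averaged -0.63 on TCDD replicate 4, against 0.11 to 0.57 on the other TCDD arrays. Their sums were 3.69 to 6.86 on TCDD arrays and 3.48 to 5.73 on control arrays. Most of that average came from Mzb1, which stood at -2.03 relative to the other 3 TCDD arrays, against -0.41 for Sdc1 and -0.47 for Derl3, and Derl3 is also 1 of the further ER degradation genes counted below. The part of these markers in the chaperone levels was not tested.

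**Figure D4:**
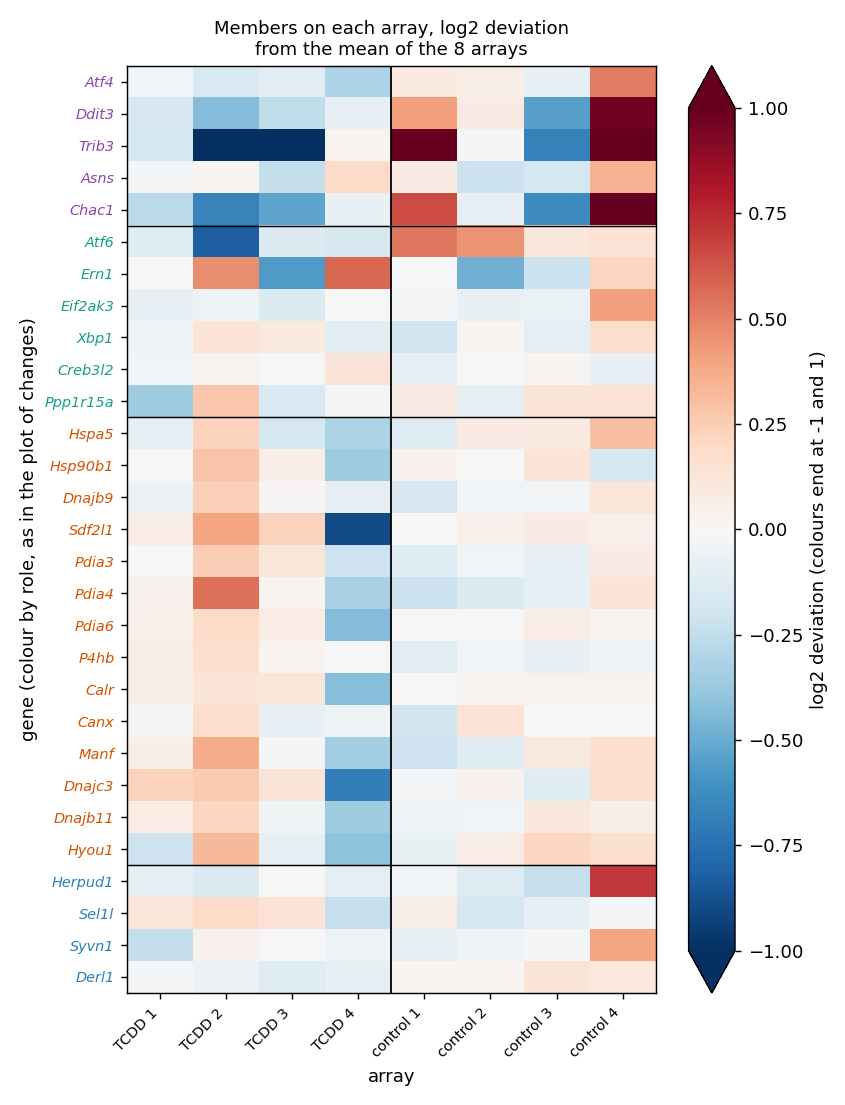
Each of the 29 measured members (rows, grouped and coloured by role) on each of the 8 arrays (columns, TCDD left of the line), as log2 deviation from the gene's mean over the 8 arrays. TCDD replicate 2 is highest for 13 and TCDD replicate 4 lowest for 11 of the 14 chaperones, while control replicate 4 is highest for all 5 ATF4 genes.

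Of the 4 measured genes of ER-associated degradation, 1 was higher and 3 were lower, with a median change of -0.13. Derl1, a membrane protein of the channel that returns misfolded proteins to the cytosol, stood at 2.57, 2.52, 2.45 and 2.49 on the TCDD arrays, against 2.59, 2.60, 2.70 and 2.69 on the control arrays. All 4 TCDD arrays lay below all 4 control arrays, the nearest values by a small margin. The change was -0.14 (SE 0.06; limma, unadjusted p = 0.039, adjusted p = 0.44; exact two-sided permutation p = 0.029), by a probe on chromosome 7 from 94573564 to 94573623 in rn4.

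Herpud1, which helps to assemble the degradation complex and carries the second form of the element in its promoter, stood at 2.48, 2.42, 2.56 and 2.46 on the TCDD arrays, against 2.53, 2.43, 2.33 and 3.27 on the control arrays. Control replicate 4 stood 0.84 above the mean of the other controls. Without that array the change of -0.16 (SE 0.19) became 0.05. Syvn1 (HRD1), the ubiquitin ligase of the complex, stood at 1.75 to 2.03 on TCDD arrays and 1.90 to 2.38 on control arrays, again with control replicate 4 highest, and its change of -0.12 (SE 0.12) was -0.0109 without that array. Sel1l, its adaptor, differed by 0.11 (SE 0.11; limma, adjusted p = 0.77), with TCDD replicate 4 the lowest of the 8 arrays.

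**Figure D5:**
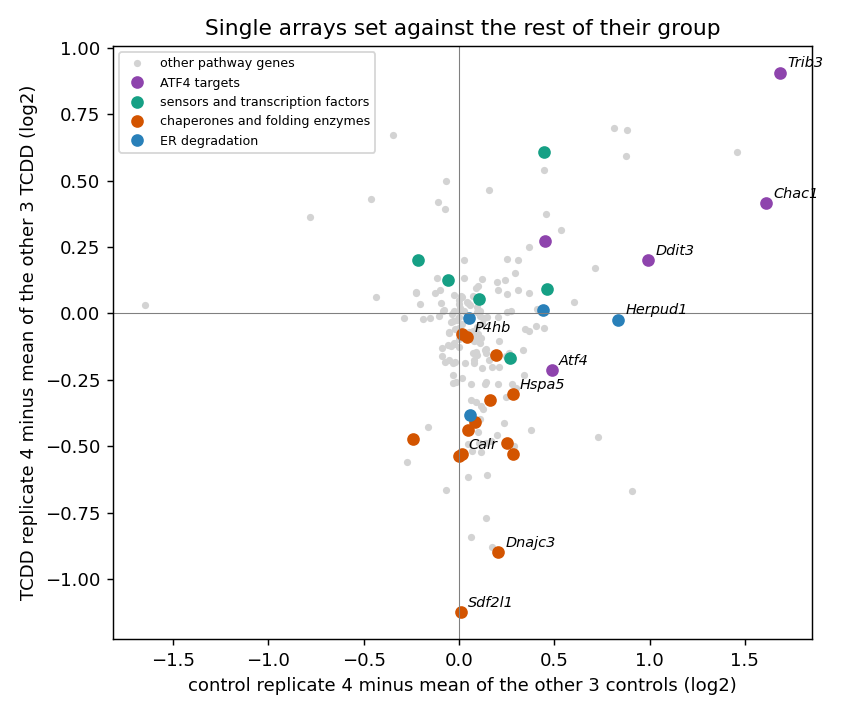
For each gene, the log2 difference of control replicate 4 from the mean of the other 3 controls (horizontal) and of TCDD replicate 4 from the mean of the other 3 TCDD arrays (vertical), with members coloured by role and 167 other genes of the pathway in grey. Trib3, Chac1 and Ddit3 lie to the right, and Sdf2l1 and Dnajc3 lie at the bottom.

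Beyond the members, 167 other genes of these pathways were measured in 7 lists, and 0 passed (limma, adjusted p under 0.05; 7 higher and 4 lower at an unadjusted p under 0.05, where all genes gave 7.76% and 2.95%). Of the 167, 95 were higher and 72 lower, with a median of 0.01, where 56.4% of all genes were higher. The 4 TCDD values lay entirely above the 4 control values for 2 of the 167 and entirely below them for 7. Across all genes these shares were 5.19% and 1.91%. With median centring 62 were higher and 105 lower, and 44.3% of all genes were higher, so the splits of the single lists below also depend on the scaling. The 2 genes with the smallest unadjusted p of each list are named here. Ero1b, an oxidase that recharges disulfide isomerases, stood at -3.53, -3.30, -3.21 and -3.78 on the TCDD arrays, against -4.71, -3.82, -4.26 and -4.43 on the control arrays. Its groups did not overlap, by a small margin, and the change was 0.85 (SE 0.20; limma, adjusted p = 0.24). In the same list of 27 folding and redox proteins, the peroxiredoxin Prdx4 differed by 0.19 (SE 0.07).

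Among 33 other ATF4 and CHOP targets, 16 were higher and 17 lower, with changes from -0.76 to 0.45 and a median of -0.0015. Vldlr, a lipoprotein receptor, differed by 0.45 (SE 0.10; limma, adjusted p = 0.22), with TCDD arrays all above control arrays, and the transcription factor Cebpb by -0.25 (SE 0.10). Control replicate 4 was the highest of the 8 arrays for 19 of these 33, against 17.7% of all genes. Atf3, a stress-induced transcription factor chosen here after its values were seen, stood at -3.93, -4.34, -3.94 and -3.46 on the TCDD arrays, against -2.45, -3.85, -4.27 and -2.07 on the control arrays. Control replicates 1 and 4 were the highest, as for Trib3, Ddit3 and Chac1, and the other controls lay within the TCDD range. Being chosen by its values, Atf3 adds no separate evidence for that order.

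No gene of the other 5 lists passed either. Of 19 further sensors and transducers 10 were higher and 9 lower, with Bak1 at 0.18 (SE 0.08) and the amino acid sensing eIF2 kinase Eif2ak4 (GCN2) at 0.22 (SE 0.11). Of 23 translocon and signal peptide genes 14 were higher and 9 lower, and Sec62 differed by 0.44 (SE 0.14) and Sec11c by -0.15 (SE 0.12). Of 23 N-glycosylation genes 16 were higher and 7 lower, with Uap1 at 0.23 (SE 0.09) and Mogs at -0.21 (SE 0.12). Of 30 further degradation genes 16 were higher and 14 lower, with Erlin2 at -0.23 (SE 0.07) and Nploc4 at 0.17 (SE 0.07). Of 12 ER phagy and ER shape genes 9 were higher and 3 lower, with Tex264 at -0.22 (SE 0.08) and Reep5 at -0.14 (SE 0.06). For Erlin2, Tex264 and Reep5 all TCDD arrays lay below all control arrays. TCDD replicate 4 was the lowest of the 8 arrays for 15.1% of all genes. It was so for 14 of the 27 folding and redox proteins, 13 of the 23 N-glycosylation genes, 6 of the 23 translocon genes and 8 of the 30 further degradation genes. The counts were 3 of 19 for the sensors, 3 of 12 for ER phagy and ER shape and 2 of 33 for the other ATF4 and CHOP targets.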

How the data were processed

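Total RNA of whole pituitaries was labelled with Cy3 and hybridised to single-colour Agilent rat arrays, per the labels' protocols. Per the file headers, linear intensities after background subtraction were extracted with Agilent Feature Extraction 10.7.1.1, and these were deposited array by array. The authors also deposited a table of linear intensities with 1 shared distribution (each column's median is 56.3). It served as an alternative, and its exact scaling is not given in the sources used here.

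Of 30367 probes, 21187 were matched to a RefSeq (GRCr8) gene name and the rest kept theirs. Processed signals were put on the log2 scale and set against the 75th percentile of an array's non-control spots, with outlier spots missing and spots of a probe averaged. Probes well above background on 4 or more arrays were kept, and a gene was given by its brightest kept probe. The comparison of TCDD with control arrays used limma 3.58.1 (lmFit, eBayes; R 4.3.3), with Benjamini-Hochberg adjustment over 17361 genes and a threshold of 0.05. The fit was tested on simulated data. Exact permutation tests used 70 assignments. Members, lists and tests were chosen with earlier results of these data known. All members are named, and of each other list the 2 genes with the smallest unadjusted p. Atf3 was named outside this rule, after its values were seen. Alternatives covered scaling, background correction (normexp, offset 50, followed by quantile normalization), the dim-probe filter, outlier spots, the summary of probes, the deposited table, the replicate block and each array left out.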

Additional observations from a re-analysis of the deposited data

Results flagged for a closer look

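A single array lay apart from the other 3 of its group, by Dixon's ratio (its gap to the nearest array over the whole group's range, with the 95% critical value for 4 arrays), in 7 of the 86 groups of 4 examined, or 8.14%, where chance gives about 5%. TCDD replicate 2 was low for Atf6 (0.943). TCDD replicate 4 was low for the chaperones Calr (0.883) and Dnajc3 (0.866), for the degradation adaptor Sel1l (0.832) and for the translocation factor Sec62 (0.907). Control replicate 4 was high for Eif2ak3 (0.874) and Syvn1 (0.866).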

How the results depend on the processing

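No member passed in any setting. Of 688 values of members and other named genes under alternatives, 654 kept their direction and 34 reversed, and the lowest adjusted p was 0.17. Of the 43 genes behind these values, 29 kept their direction in every setting, among them Atf4, Ddit3, Trib3, Chac1, Atf6, Derl1 and P4hb. Across all genes the replicate numbers did not pair the arrays (correlations of same-numbered deviations -0.096 to -0.019). With the replicate number as a block 0 genes were called. For the ATF4 genes the block did change the SE. It fell to 0.23 for Trib3 (limma, adjusted p = 0.43), 0.29 for Chac1, 0.22 for Ddit3 and 0.09 for Asns. For Atf4 it rose to 0.15. The unadjusted p (limma) with the block was 0.0020 for Trib3, 0.043 for Chac1 and 0.10 for Atf4. Without the block it was 0.059, 0.11 and 0.049. The members under 0.05 before adjustment were therefore not the same in these fits. The count of all genes past the threshold, 14, was 1 with quantile normalization, 9 with median centring, 0 with normexp background correction and quantile normalization together (normexp plus quantile) and 1 with the deposited table, and 0 to 11 with 1 array left out. Of genes at an unadjusted p under 0.05, 72.5% were higher, against 58.7% with quantile normalization, 48.2% with median centring, 56.0% with normexp plus quantile and 54.1% with the deposited table. With normexp plus quantile, which changes both choices at once, the reversed values were Xbp1 (-0.04), Hsp90b1 (-0.013), Dnajb9 (-0.022), Canx (-0.0577) and Sel1l (-0.018). Hsp90b1 stood at -0.0003, -0.038 and -0.025 and Canx at -0.018, -0.025 and -0.019 with quantile normalization, median centring and the deposited table, and Manf at -0.0051 with median centring. With 1 array left out, changes ranged from -0.10 to 0.0899 for Asns, -0.01 to 0.11 for Xbp1, -0.10 to 0.12 for Hsp90b1, -0.02 to 0.10 for Dnajb9, -0.24 to 0.19 for Sdf2l1, -0.0098 to 0.28 for Pdia4, -0.13 to 0.0787 for Pdia6, -0.11 to 0.079 for Calr, -0.0449 to 0.0643 for Canx, -0.0847 to 0.16 for Manf, -0.13 to 0.19 for Dnajc3, -0.13 to 0.0585 for Dnajb11 and -0.26 to 0.0502 for Herpud1. The highest values of several of these genes were larger in size than their changes with all arrays. Sdf2l1, Dnajc3, Calr, Pdia6, Dnajb11 and Asns were among them. For Sdf2l1 and Dnajc3 the highest value was that without TCDD replicate 4. The median over the ATF4 genes ranged from -0.72 without control replicate 3 to -0.21 without control replicate 4, and that over the other members from -0.12 without TCDD replicate 2 to 0.0789 without TCDD replicate 4. The causes were not tested. The number of arrays limits the precision, and Ern1 was close to background.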
